A study of Mus musculus with 10 samples.

Results

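Ecel1 encodes a membrane-bound zinc peptidase of neurons, and it is described here as 1 gene of the 34254 genes in the deposited matrices. It was chosen for the way it read out in these libraries, near 0 in uninjured retinal ganglion cells (RGCs) and high after injury. Its level by condition, its share of cells, its level in cells marked by Opn4, Spp1, Foxp2, Tbr1, Cartpt or Eomes, and its correlations across injured cells are therefore given as a description with no test. Tests were run on genes of lists set out around Ecel1 and on a marker class that did not enter that choice.

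The study profiled RGCs, the neurons whose axons form the optic nerve, by single-cell RNA sequencing (scRNA-seq) in 10 libraries. Uninjured RGCs gave 6 libraries and RGCs taken 2 weeks after optic nerve crush (ONC), an injury that severs their axons, gave 4. All came from wild-type 129S1/SvImJ mice aged 12 weeks, labelled as of both sexes. Cells from pools of 10 retinas per batch had macrophages removed, were captured with an antibody against Thy1, and were loaded at 6000 cells per batch on a 10X Chromium system, and the series text adds sorting by flow cytometry. The labels list no virus or transgene for any of these libraries.

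The deposited files hold cells that the authors describe as selected RGCs, 1683 from uninjured and 1609 from injured retinas. Their paper gives the same number of uninjured and a smaller number of injured cells. Uninjured libraries 1 to 6 held 98, 103, 363, 651, 267 and 201 cells, and injured libraries 1 to 4 held 338, 273, 527 and 471. Counts are of unique molecular identifiers (UMIs), tags that each mark 1 captured RNA molecule. Library totals ran from 2839693 to 23180399 UMIs in uninjured and from 4698799 to 8860536 in injured RGCs. Cells of uninjured libraries were the more deeply sampled, with medians of 20437 to 34337 UMIs against 11257 to 14695 after injury. The summed level of Tubb3, Sncg, Rbpms and Slc17a6, which mark RGCs of all types, averaged 3842 CPM (counts scaled to a common library size) in uninjured and 3114 in injured samples, and all 4 were detected in every sample. Mean levels moved in different directions, from 544 to 1262 CPM for Tubb3, 2185 to 1050 for Sncg, 699 to 302 for Rbpms and 414 to 501 for Slc17a6.

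Several libraries share cells or go against their labels. Injured 3 and 4 shared 421 cell barcodes, and no other pair shared more than 1. They were averaged and counted as 1 sample, injured 3/4, which leaves 6 uninjured and 3 injured samples. Xist is an RNA of the inactive X chromosome in females. Injured 1 and 2 had it in 62.1% and 67.4% of their cells, and no other library exceeded 0.569%, although both sexes are given for all. The sequence of mCherry, a red fluorescent reporter, was found in 86.0% (injured 3), 84.3% (injured 4), 7.99% (injured 1) and 15.0% (injured 2) of cells, and uninjured cells had none. Sex, reporter and injury thus cannot be fully told apart over samples, and Ecel1 is given by Xist and mCherry below. Uninjured libraries also resembled each other in pairs. The level of Malat1, an abundant nuclear RNA, was 46474 and 46856 CPM in uninjured 1 and 2, 28842 and 31989 in uninjured 3 and 4, and 17962 and 19389 in uninjured 5 and 6. Whether each pair came from 1 preparation is not stated, and the fits treat all 6 as independent.

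ECEL1, also called damage-induced neuronal endopeptidase, belongs to the M13 family of zinc peptidases with neprilysin and the endothelin-converting enzymes. It is a type II membrane protein found mostly in the endoplasmic reticulum, and its natural substrate is not known. Nerve injury is known to induce it in several kinds of neuron, and ATF3, c-Jun, STAT3 and Sp1 have been reported to act on its promoter. Mice without it die at birth from failure to breathe, with motor nerves that branch poorly in muscle, and human mutations cause a form of distal arthrogryposis, a disorder of joint contractures.

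GENCODE places Ecel1 (ENSMUSG00000026247.15) at chr1:87075377-87084243 of GRCm39 (mm39), read from the reverse strand. Its canonical transcript ENSMUST00000160810.3 has 18 exons and 2909 exonic bases. The noncoding genes Gm51638 and Gm70552 overlap it on the opposite strand and are not among the genes the authors counted. The 10X 3′ kit keeps strand, and reads from them were not looked at here. Because the reported regulators of Ecel1 are described below, the stretch before the start of the canonical transcript is shown, up to the first exon of the longer transcripts Ecel1-204 and Ecel1-206. It spans chr1:87083892-87083969 (GRCm39) and is written 5′ to 3′ on the reverse strand, with the match to a GC box, the letters bound by Sp1, in capitals.
Ecel1 upstream: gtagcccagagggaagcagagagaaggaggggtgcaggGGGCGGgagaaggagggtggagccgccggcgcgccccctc
Of these 78 bases, 73.1% are G or C, against a median of 57.7% over 21757 promoters of protein-coding genes of the same length. The letters GGGCGG, searched on both strands, matched 1 time, from 40 bases before the start, and 26.1% of the promoters hold them. The letters TGANTCA (AP-1), TGACGTCA (CRE) and TTCNNNGAA (STAT) had no match on either strand in this window, and 1.84%, 1.22% and 2.02% of promoters hold them. A match is a description of letters and was not tested as a binding site.

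Ecel1 was all but absent from uninjured RGCs and abundant in injured RGCs. Uninjured libraries 1, 2, 3 and 6 held no UMI of it, uninjured 4 held 12 and uninjured 5 held 6. Injured libraries 1 to 4 held 5526, 3991, 5894 and 4004. Scaled to the library total alone this was 0.518 CPM (95% Poisson interval 0.267 to 0.904) in uninjured 4 and 1.06 (0.387 to 2.30) in uninjured 5. The same measure was 931, 849, 665 and 638 in injured 1 to 4, and all intervals and floors here cover counting error alone.

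Scaled by the trimmed mean of M-values (TMM), the lowest uninjured sample was at 0 CPM, the median at 0 and the highest at 1.10. Injured 1, 2 and 3/4 were at 968, 896 and 665 CPM. The groups did not overlap, which is the pattern Ecel1 was chosen for. The means were 0.266 CPM ± 0.455 (SD, n = 6) and 843 ± 158 (SD, n = 3), a ratio of 3167 that rests on the 18 UMIs of uninjured 4 and 5. Without uninjured 5 the uninjured mean fell to 0.0994 CPM and the ratio became 8514, so the uninjured mean and the size of the ratio are poorly fixed. Set against single libraries, the lowest injured sample was 1346-fold above uninjured 4 and 602-fold above uninjured 5. Against a floor of 3 counts per library it was at least 658-fold higher than uninjured 1, 790-fold than uninjured 2, 2946-fold than uninjured 3 and 978-fold than uninjured 6. Within the injured group the highest sample was 1.46 times the lowest, with injured 3/4, the sample rich in mCherry, the lowest.

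**Figure D1:**
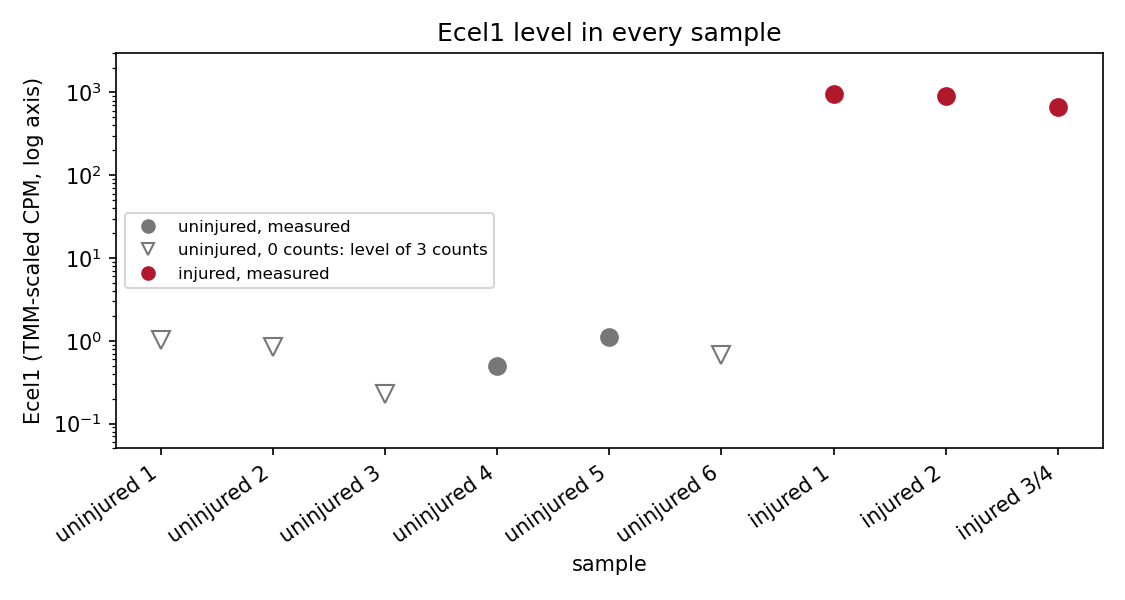
Ecel1 in each of the 9 samples as TMM-scaled CPM on a log axis, with open triangles at the level that 3 counts would give in uninjured libraries with no Ecel1 UMI. The 3 injured samples lie between 665 and 968 CPM and every uninjured value or floor lies at or under 1.10.

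Few genes went from so near 0 to such a level. Among 14234 genes with enough counts to be tested, Ecel1 included, 5 averaged under 1 CPM in uninjured samples and had at least 100 CPM in every injured sample. These limits, and so these genes, were chosen after the values were seen. The other 4 were Sprr1a, a small proline-rich protein of regrowing neurons (mean 0.0375 to 811 CPM), Atf3, a stress-induced transcription factor (0.808 to 799), Hrk, a BH3-only promoter of apoptosis (0.708 to 253), and Phgdh, the first enzyme of serine synthesis (0.974 to 220).

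Most injured cells held Ecel1. To compare cells of unequal depth, each cell was thinned at random to 8000 UMIs, and shallower cells were left out. After thinning, at least 1 Ecel1 UMI was found in 93.5% of the cells of injured 1 (95% exact binomial interval 90.1 to 96.0), 93.2% of injured 2 (89.4 to 96.0), 90.9% of injured 3 (87.9 to 93.3) and 91.6% of injured 4 (88.3 to 94.3). The mean over the 3 samples was 92.6% ± 1.21 (SD). Unthinned, the shares were 94.7%, 92.7%, 91.5% and 91.3%. With at least 2 UMIs asked for, the thinned mean was 88.3% ± 2.62 (SD, n = 3). Among uninjured cells, unthinned and deeper, 3 of 1683 held any, or 0.178% (exact interval 0.0368 to 0.520). No cell type known beforehand to lack Ecel1 was among the deposited cells, so the share that free RNA alone would give was not measured directly. Injured cells with 4 or more thinned UMIs of Opn4, a marker described below, numbered 5 to 9 per library. They held 2, 0, 1 and 1 Ecel1 UMIs in injured 1 to 4, or 28.1, 0, 9.08 and 10.0 CPM. Any free Ecel1 RNA in those cells is part of these counts. The uninjured libraries show only that Ecel1 was near 0 in RGCs without injury.

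The level varied between injured cells by more than counting alone would give. In thinned cells the median was 7 UMIs in injured 1 and 2 and 5 in injured 3 and 4, with maxima of 25, 25, 18 and 15. The variance over the mean, which is 1 for counting error alone, was 3.10, 2.60, 2.25 and 2.18. A count of 0 was more frequent than a count of 1 in all 4 injured libraries. The top 10% of cells held 22.3% to 22.9% of all Ecel1 UMIs in each of the 4 libraries, so the total did not rest on a few cells. For the 421 barcodes found in both injured 3 and 4, Pearson r between the 2 readings of ln(1 + UMIs) was 0.898, with 29 cells at 0 and 381 above 0 in both.

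**Figure D2:**
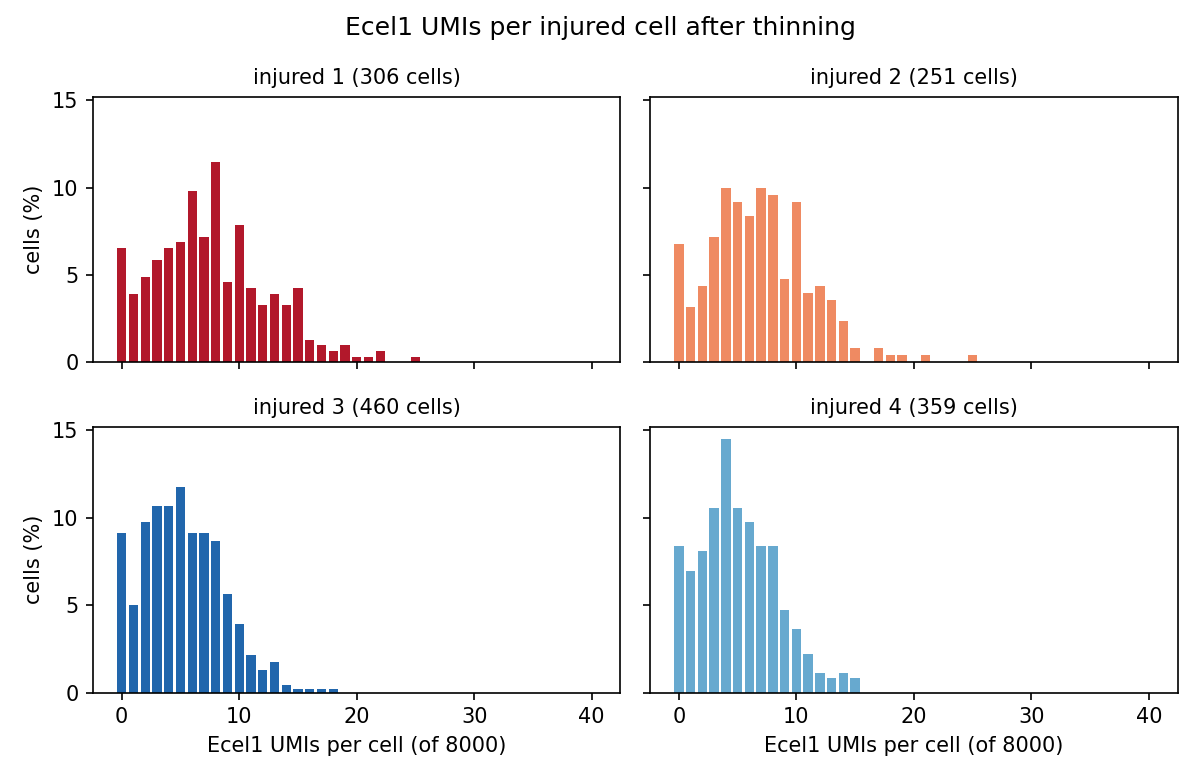
Share of cells (%) at each number of Ecel1 UMIs in the 4 injured libraries, with every cell thinned to 8000 UMIs. The median is 7 in injured 1 and 2 and 5 in injured 3 and 4, and 6.54% to 9.13% of cells are at 0.

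RGCs fall into many types, and the types marked by Opn4 and Eomes held little Ecel1 after injury. Opn4 encodes melanopsin, the photopigment of intrinsically photosensitive RGCs, and Eomes (Tbr2) is a transcription factor of the same cells. A cell counts as positive with at least 2 thinned UMIs of the marker and as negative with 0, and levels are Ecel1 UMIs as CPM of the total of those cells. Opn4-positive cells, 8 to 17 per library, were at 263, 230, 37.5 and 71.5 in injured 1 to 4, against 950, 887, 706 and 668 in Opn4-negative cells. Eomes-positive cells, 5 to 12 per library, were at 28.6, 108, 116 and 62.0, against 945, 892, 693 and 669. For both markers the positive cells were lower in each of the 4 libraries. The log2 ratio of positive to negative averaged −2.51 ± 1.06 for Opn4 and −3.70 ± 1.17 for Eomes (SD, n = 3). The Opn4 ratio depended on the threshold and the counts, at −1.07 with at least 1 UMI and −3.27 with sums of thinned counts. In injured 1 and 2, Opn4 cells with 4 or more UMIs held 2 of 35 and 0 of 41 of the Ecel1 UMIs.

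Cartpt, which encodes a neuropeptide precursor of direction-selective RGCs, marked cells at an intermediate level. The 8 to 11 Cartpt-positive cells per library were at 267, 573, 362 and 383 CPM, against 954, 862, 678 and 653 in negative cells, a mean log2 ratio of −1.09 ± 0.66 (SD, n = 3). This ratio depended on the threshold, at −0.37 with at least 1 UMI and −1.66 with at least 4. The class was mixed, since 5 of 8, 2 of 11, 4 of 11 and 2 of 8 cells had 0 thinned Ecel1 UMIs in injured 1 to 4. Tbr1, a transcription factor of some orientation-tuned and other RGCs, marked 1 to 3 cells per library at this threshold. Their Ecel1 was 108, 137, 0 and 1043 CPM, too few cells for a level. Foxp2, a transcription factor of the F-type RGCs, marked 26 to 32 cells per library at 920, 944, 509 and 583 CPM, against 917, 841, 677 and 650. Foxp2 cells were higher in injured 1 and 2 and lower in injured 3 and 4, and the mean log2 ratio of −0.04 was smaller than its SD of 0.23.

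Spp1 cells held the most. Spp1 encodes osteopontin, a marker of alpha RGCs, which are large cells. Kcng4, another marker of alpha RGCs, had no positive cell at this threshold in any injured library. The 5 to 33 Spp1-positive cells per library were at 1228, 1240, 833 and 790 CPM, against 892, 837, 644 and 619 in negative cells. They were higher in all 4 libraries, with a mean log2 ratio of 0.46 ± 0.10 (SD, n = 3). In order of mean level over the 3 samples, the positive classes stood at 1093 ± 244 for Spp1, 803 ± 223 for Foxp2, 404 ± 155 for Cartpt, 182 ± 112 for Opn4 and 75.3 ± 41.6 for Eomes (SD). The order of the last 2 depends on the threshold, since with at least 4 marker UMIs the means were 12.5 for Opn4 and 39.1 for Eomes, over 1 to 9 cells per library.

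**Figure D3:**
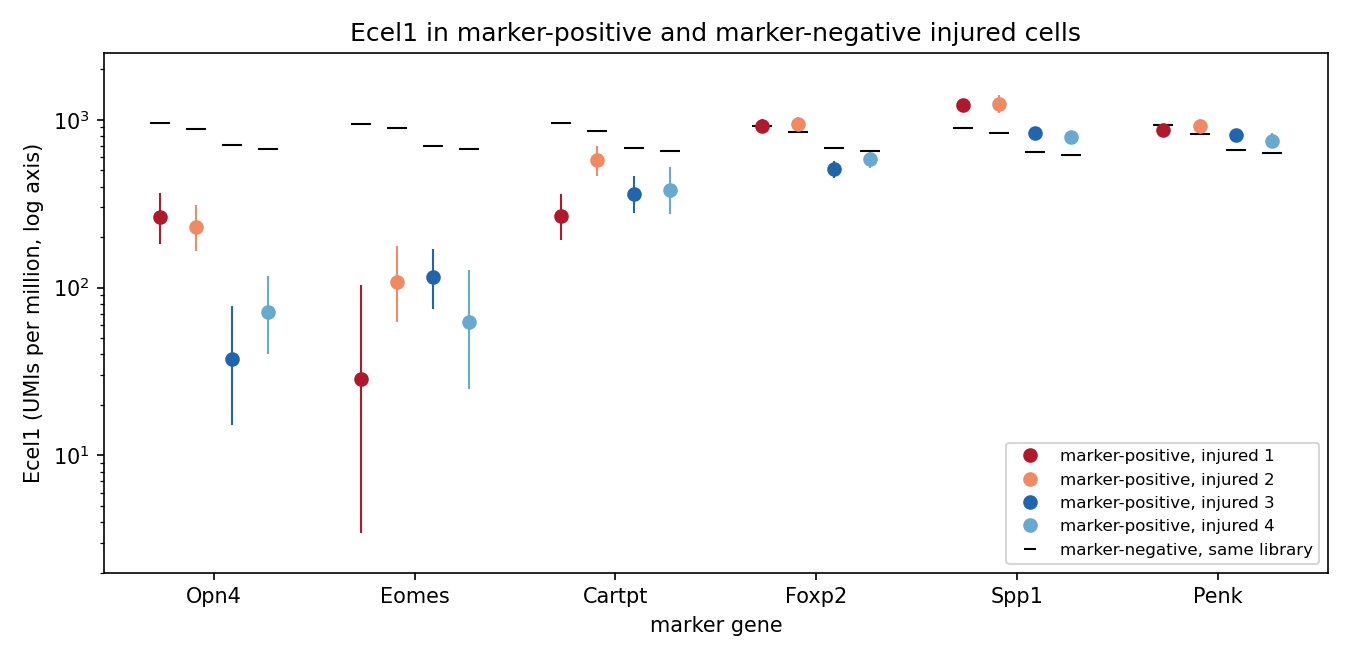
Ecel1 in CPM of the cells of the class on a log axis, in marker-positive cells (points with 95% Poisson intervals) and marker-negative cells (black dashes) of each injured library. Opn4, Eomes and Cartpt cells lie under the dashes and Spp1 cells above them in all 4 libraries, whereas Foxp2 and Penk cells lie on both sides.

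The same contrast appears from the side of the cells without Ecel1. Of the Opn4-positive cells, 6 of 8, 7 of 9, 10 of 13 and 13 of 17 had 0 thinned Ecel1 UMIs in injured 1 to 4. The figures for Eomes were 4 of 5, 7 of 8, 8 of 12 and 6 of 9. No Spp1-positive cell lacked it, out of 12, 5, 33 and 28. Of the cells without Ecel1, 11 of 20, 11 of 17, 18 of 42 and 15 of 30 were positive for Opn4, Eomes or Cartpt in injured 1 to 4. Among cells with Ecel1 such cells made up 1.75%, 4.70%, 2.87% and 3.04%. The type of the other cells without Ecel1 was not determined. Marker levels can themselves change with injury: Cartpt averaged 564 CPM in uninjured and 41.7 in injured samples. Spp1 averaged 21.6 CPM in uninjured and 92.6 in injured samples, with overlap between the groups. A class after injury is therefore a class by marker RNA, and need not hold the same types as before.

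Markers that did not enter the choice of Ecel1 allowed a test. A marker was tested where both classes had at least 10 cells in every injured library, and not every marker tested is reported here. Penk, which encodes the precursor of enkephalins, had enough cells. Penk-positive cells were at 864, 918, 809 and 750 CPM of Ecel1 in injured 1 to 4, against 936, 822, 656 and 638 in negative cells, so the classes overlapped. With sample as a block, the log2 difference was 0.17 (SE 0.11, adjusted p = 0.702, edgeR quasi-likelihood test with Benjamini-Hochberg adjustment), with 3 positive and 3 negative sums. In the same fit, 101 of 11260 genes (0.897%) passed the threshold of 0.05. Unadjusted, the Ecel1 p of this edgeR test was 0.160. A p above the threshold does not show equal levels.

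Ecel1 was compared within libraries by mCherry and by Xist, where at least 10% of cells held them. In injured 2, 3 and 4, the cells with mCherry were at 1002, 702 and 661 CPM of Ecel1 and those without at 830, 486 and 552, higher with mCherry in all 3 libraries, of which injured 3 and 4 are 1 sample. The share of thinned cells with Ecel1 was 100%, 92.5% and 91.1% with mCherry and 92.3%, 82.4% and 94.4% without, so lower with mCherry in injured 4. Injured 1 had too few cells with mCherry. Over single cells, r between mCherry and Ecel1 was −0.06, 0.14, 0.15 and 0.09 in injured 1 to 4. Across samples, the one with the most mCherry, injured 3/4, had the lowest Ecel1 level. Cells with Xist were at 965 and those without at 873 in injured 1, and at 778 and 1007 in injured 2, so the direction differed between the 2 libraries. The part of either in the differences between samples was not tested.

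Markers of other retinal cells were looked up among the selected RGCs. The labels name depletion of macrophages, and the paper adds amacrine cells. Summed over 6 markers of microglia or macrophages the level was 4.93 CPM ± 2.68 (SD, n = 6) in uninjured and 11.6 ± 6.15 (SD, n = 3) in injured samples, most of it Cx3cr1, a chemokine receptor. Summed over 7 amacrine markers the level was 490 CPM ± 58.3 (SD, n = 6) in uninjured and 235 ± 86.7 (SD, n = 3) in injured samples, with Pax6, which RGCs also express, the most abundant. Sums over 6 bipolar and 6 Müller glia markers were 102 and 145 CPM in uninjured and 139 and 111 in injured samples, with the kinase gene Prkca the most abundant of the bipolar markers. Injured cells with 3 or more detected markers of 1 such class held Ecel1 at 719, 853, 671 and 541 CPM in injured 1 to 4, against 983, 848, 664 and 646 in the other cells. Cells without such markers thus held about as much Ecel1, or more.

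Only 3 uninjured cells held Ecel1, and 2 of them also held RNAs of injured RGCs. The first, in uninjured 4, had 12 Ecel1 UMIs among 13890, or 864 CPM, which is within the range of the injured libraries. It also had 15 UMIs of Atf3, 17 of Jun, 18 of Ddit3, 14 of Gadd45g and 3 of Hrk, but none of Sprr1a, Chac1, Flrt3, Npy or Sp1. Of the 650 other cells of that library, only 1 had as many Atf3 UMIs and none as many of Gadd45g or Hrk. This cell had 2 UMIs each of Rbpms and Sncg, fewer than most of its library, 4 of Tubb3 and 11 of Slc17a6, and 3 markers of another retinal class. The second, in uninjured 5, had 5 Ecel1 UMIs among 30238, with 2 of Atf3, 18 of Jun, 7 of Sox11, 4 of Hrk and 1 of Sprr1a. It had none of Stat3, Sp1, Hspb1, Gal, Npy, Adcyap1 or Chac1, which were also higher in injured samples. None of the 266 other cells of its library had as many of Atf3, Sox11, Hrk or Sprr1a. The third, also in uninjured 5, had 1 Ecel1 UMI among 19891 and none of Atf3, Hrk or Sprr1a. Seen from Atf3, 27 uninjured cells had at least 1 UMI of it and 2 of these held Ecel1. At 5 or more Atf3 UMIs, 1 of 3 uninjured cells held Ecel1. In the injured libraries this was so in 232 of 233, 179 of 179, 312 of 314 and 252 of 253 cells.

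The other members of the M13 family did not share the rise. Of the 6, 5 had enough counts to be tested, 0 rose and 3 fell, where 21.3% of the 14233 genes tested beside Ecel1 were higher and 22.7% lower in injured samples. Mme and Mmel1 passed the filter on low counts through their uninjured samples, where they were higher. With no such filter, 0 of the 5 rose and 3 fell. The median log2 change was −1.11 over the 5 and −0.03 over all genes tested. Ece2, an endothelin-converting enzyme, ran from 62.8 to 67.3 CPM (median 65.4) in uninjured samples and was at 28.5, 29.9 and 32.5 in injured 1, 2 and 3/4. The groups did not overlap, and it fell by 1.11 on the log2 scale (SE 0.11, adjusted p = 1.004e-05, edgeR). Mme, which encodes neprilysin, the best known degrader of neuropeptides and amyloid, ran from 7.91 to 26.6 CPM (median 12.5) and was at 0.674 to 2.15 in injured samples. It fell by 3.42 (SE 0.48, adjusted p = 1.387e-04, edgeR), again with no overlap. With 1 sample left out the log2 change of Mme lay between −4.27 and −3.15. Mmel1, a close relative of neprilysin, ran from 2.36 to 12.2 CPM (median 7.26) and was at 0.525, 0.674 and 0.269. It fell by 3.95 (SE 0.58, adjusted p = 1.949e-04, edgeR). Over the alternatives listed below, the log2 change of Mmel1 lay between −5.23 and −3.58. Ece1 ran from 19.9 to 30.4 CPM in uninjured samples and from 20.9 to 27.1 in injured samples, overlapping, with a log2 change of −0.15 (SE 0.16, adjusted p = 0.470, edgeR). Phex, the peptidase of X-linked hypophosphatemia, was at 3.37 CPM or less everywhere (log2 change 0.51, SE 0.41, adjusted p = 0.343, edgeR), and Kel, the Kell blood group antigen, had no UMI in any sample.

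Within the injured cells Ece1 ran opposite to Ecel1. For this, injured cells were grouped by their thinned Ecel1 UMIs into 0, 1 to 4, 5 to 9, and 10 or more, and levels were averaged over the 3 samples. Ece1 was at 64.2, 28.9, 18.4 and 13.5 CPM across the 4 groups. Ece2 was at 43.8, 32.6, 27.2 and 24.4, although in injured 1 it was lowest in the cells without Ecel1.

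All 4 genes reported to act on the Ecel1 promoter rose, where 21.3% of all genes did, with a median log2 change of 2.38 against −0.03 over all genes tested. Atf3 ran from 0 to 2.51 CPM (median 0.577) in uninjured samples and was at 802, 835 and 761 in injured 1, 2 and 3/4. It rose by 9.37 on the log2 scale (SE 0.44, adjusted p = 3.356e-08, edgeR), and by 10.51 without uninjured 4, its highest uninjured library. Jun, the AP-1 subunit c-Jun, ran from 43.8 to 93.9 CPM (median 54.8) and was at 544, 532 and 455, a rise of 2.99 (SE 0.24, adjusted p = 1.778e-06, edgeR). Stat3, which carries cytokine signals to the nucleus, ran from 18.9 to 29.3 CPM (median 25.5) and was at 84.2, 82.4 and 89.3, a rise of 1.76 (SE 0.14, adjusted p = 1.961e-06, edgeR). Sp1, a widely expressed factor that binds GC boxes, ran from 8.38 to 16.5 CPM (median 14.3) and was at 23.8, 23.1 and 22.2, a rise of 0.76 (SE 0.18, adjusted p = 0.00421, edgeR). For none of the 4 did the groups overlap. The share of all genes without overlap is not given here, so this does not set these or other genes named here apart.

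Over injured cells these 4 genes did not follow Ecel1 alike. Mean r with Ecel1 over the 3 samples was 0.41 for Atf3, 0.12 for Jun, −0.12 for Stat3 and −0.02 for Sp1, the last detected in at most 19.9% of the cells of a library. Across the 4 groups of Ecel1 UMIs, Atf3 was at 204, 724, 872 and 865 CPM. Jun was at 342, 470, 513 and 508, so the means of both increased up to the third group and no further. Stat3 was at 120, 99.0, 73.8 and 59.6, falling in the mean though not group by group in injured 1 or 2.

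**Figure D4:**
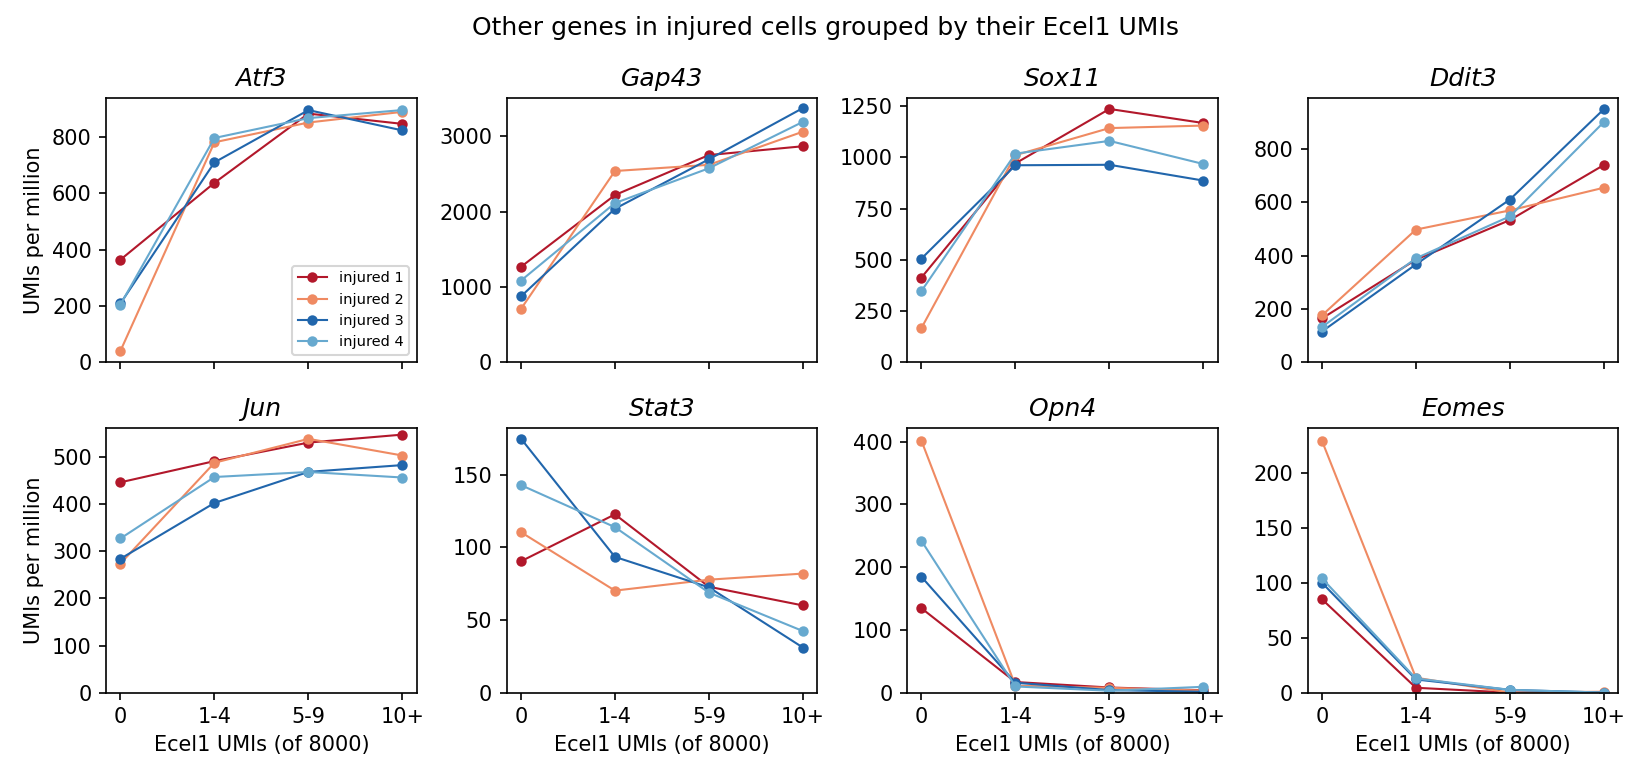
CPM of 8 genes in injured cells grouped by thinned Ecel1 UMIs (0, 1 to 4, 5 to 9, 10 or more), 1 line per injured library. Atf3, Gap43, Sox11 and Ddit3 are lowest and Opn4 and Eomes highest in the cells with 0 Ecel1 UMIs in all 4 libraries.

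A list of 24 axon injury response genes moved mostly upward. All 24 were tested, 21 rose, 1 fell and 2 did not pass, against 21.3% and 22.7% of all genes, and the median log2 change was 2.60 against −0.03. Atf3 and Jun are also members of this list. Sprr1a was at 0.184 CPM or less in uninjured samples and at 667, 988 and 777 in injured samples, a rise of 13.91 (SE 0.33, adjusted p = 2.816e-10, edgeR). Hrk was at 1.35 CPM or less and then at 233, 238 and 290, a rise of 8.35 (SE 0.33, adjusted p = 9.847e-09, edgeR). Sox11, a transcription factor of growing neurons, ran from 22.6 to 35.7 CPM (median 27.9) and was at 1145, 1119 and 986, a rise of 5.27 (SE 0.16, adjusted p = 1.850e-09, edgeR). The gene that fell, Vip, a neuropeptide also made by amacrine cells, ran from 0 to 22.0 CPM (median 2.85) and was at 0.350, 0.225 and 0.269, with overlap between the groups. It fell by 4.61 (adjusted p = 0.0266, edgeR) but did not pass with any 1 injured sample left out (adjusted p of 0.0827 without injured 1).

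Genes of this list that rose with injury differed in how they followed Ecel1 across injured cells. Gap43, a growth cone protein, was at 985, 2277, 2667 and 3068 CPM across the 4 groups of Ecel1 UMIs. Ddit3 (CHOP), a transcription factor of the unfolded protein response, was at 155, 420, 560 and 772. Both rose at each step, in the means and in every library. Sprr1a was detected in 30.0% to 37.3% of thinned cells, and its mean r with Ecel1 was 0.10. Across the 4 groups it was at 173, 822, 899 and 883 CPM, and lowest at 0 Ecel1 UMIs in every library. Gal, the galanin precursor, was highest at 1 to 4 Ecel1 UMIs (466 CPM) and at 93.6 and 128 in the lowest and highest groups.

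Peptide genes were looked at because M13 peptidases cut peptides, although a substrate of ECEL1 is not known. The list held 20 precursors and receptors of peptides that relatives of ECEL1 cut. Of these, 12 were tested, 4 rose (21.3% of all genes did), 2 fell (22.7% of all genes) and 6 did not pass, counts too small to set the list apart. Ednrb and Nppc entered the test through their injured samples alone, and Ednra and Pdyn through their uninjured samples alone. Each time this was the group where the gene was higher, so these calls are not independent of the filter on low counts. With no such filter, 4 of 18 members rose and 1 fell. The median log2 change was 0.50 against −0.03 over all genes, but −0.02 against −0.17 over the 18 members tested with no filter on low counts. Ednrb, an endothelin receptor, was at 0.576 CPM or less in uninjured samples and at 19.4, 16.2 and 14.0 in injured samples, a rise of 5.71 (SE 0.44, adjusted p = 1.367e-06, edgeR). It rose by 6.77 without uninjured 4, so the size of this change rests on few uninjured counts. Ednra, the other endothelin receptor, ran from 1.36 to 5.61 CPM (median 3.27) and was at 0.350, 0.225 and 0.134. It fell by 3.86 (SE 0.67, adjusted p = 6.437e-04, edgeR). The groups did not overlap for either receptor. Nppc, the precursor of C-type natriuretic peptide, ran from 0.226 to 0.680 CPM (median 0.410) and was at 2.45, 2.25 and 5.64, a rise of 3.06 (SE 0.43, adjusted p = 1.311e-04, edgeR).

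Tac1, the precursor of substance P, ran from 92.3 to 193 CPM (median 129) in uninjured samples and was at 365, 497 and 264 in injured samples, a rise of 1.46 (SE 0.28, adjusted p = 0.00111, edgeR). Npy, the neuropeptide Y precursor, ran from 2.36 to 31.4 CPM (median 8.18) and was at 35.9, 27.2 and 315, with overlap between the groups. Its rise of 3.39 (SE 0.75, adjusted p = 0.00327, edgeR) rested on injured 3/4, and without that sample the log2 change was 1.41 (adjusted p = 0.0965, edgeR). Pdyn, the prodynorphin gene, was at 2.24 CPM or less everywhere, with overlap between the groups. It fell by 2.06 (SE 0.75, adjusted p = 0.0445, edgeR) and did not pass without injured 1 (adjusted p = 0.133) or without injured 3/4 (adjusted p = 0.189). With injured 1 and 2 alone and cells without mCherry, 3 genes of the list passed in place of 6.

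Genes were ranked by how their level followed Ecel1 across injured cells. Pearson r of ln(1 + thinned UMIs) was taken within each library, over 306, 251, 460 and 359 cells, and averaged over the 3 samples. Cells of 1 library share their source, so no p is given. Over 4370 genes detected in at least 25% of the cells of every injured library, r had a median of 0.00328, with 5% of genes under −0.189 and 5% over 0.197. Gap43 stood first (mean r 0.48), followed by Tnfrsf12a, the receptor of the cytokine TWEAK (0.47). Next were Gm13889 (0.46), Cpe, carboxypeptidase E of peptide maturation (0.45), Krtcap2, a subunit of the oligosaccharyltransferase (0.43), and Nars, the asparaginyl-tRNA synthetase (0.43). The 12 highest also held Camk1, a calcium-dependent kinase (0.42), Hsp90aa1, a chaperone (0.41), Atf3 (0.41), Ypel3 (0.41), Sox11 (0.41) and Fam171b (0.40). Each of these was positive in all 4 libraries.

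At the other end of the ranking, Sphkap, an anchor of protein kinase A, had the lowest mean r (−0.51), then Trpm3, a cation channel (−0.49), Ncam2, an adhesion molecule (−0.49), Lingo2 (−0.47), Clstn2, calsyntenin 2 (−0.47), and Gria4, a glutamate receptor subunit (−0.45). Each was negative in all 4 libraries.

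**Figure D5:**
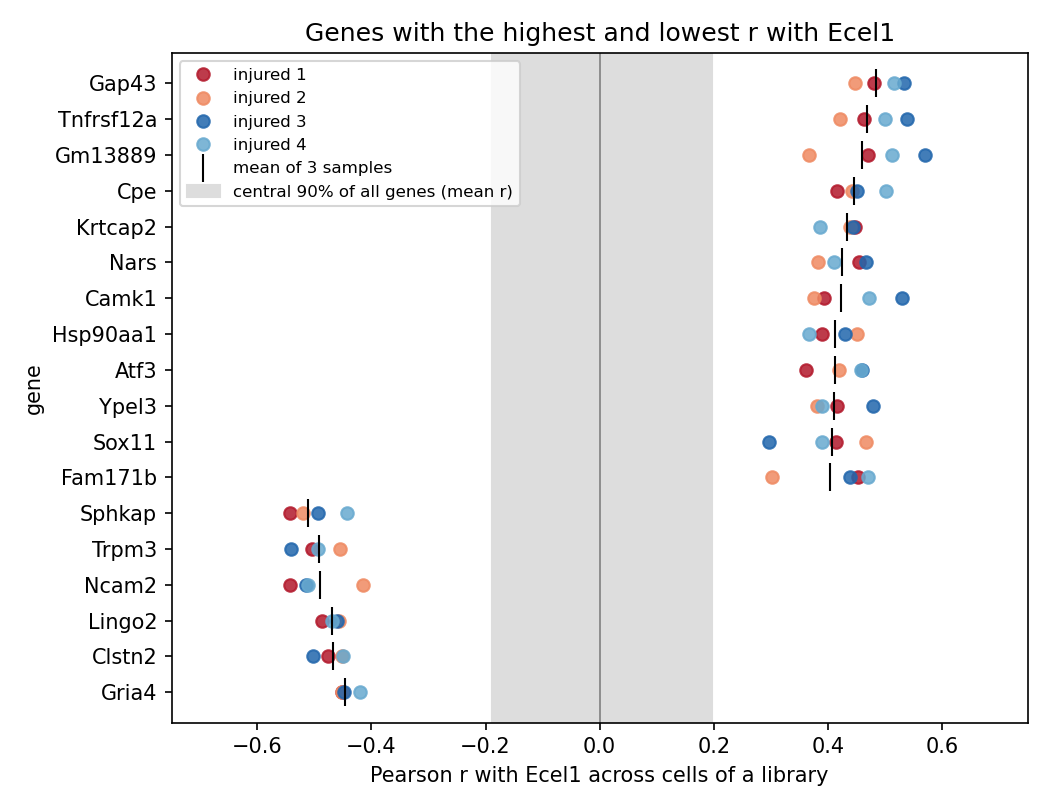
Pearson r with Ecel1 across the cells of each injured library for the 12 genes with the highest and the 6 with the lowest mean r (black ticks), with a grey band for the central 90% of 4370 genes. Every point lies outside the band.

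The correlations depended on which cells were used. In cells with at least 1 thinned Ecel1 UMI, an alternative chosen after seeing the data, r was 0.31 for Gap43, 0.20 for Atf3, 0.08 for Sox11, −0.25 for Sphkap, −0.43 for Trpm3 and −0.19 for Clstn2, and 7 of the 12 highest genes were again among the 12 highest. In cells without Opn4, Eomes, Tbr1 or Cartpt, also chosen after seeing the data, 6 of the 12 were. Cell quality also moved with Ecel1. The share of UMIs from Malat1 had r of 0.27, 0.27, 0.30 and 0.36 with Ecel1 in injured 1 to 4, and that from ribosomal protein genes 0.33, 0.26, 0.37 and 0.30. The number of genes detected after thinning had r of −0.36, −0.35, −0.09 and −0.15, and the mitochondrial share lay between −0.09 and 0.14. The part of these in the correlations was not tested.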

How the data were processed

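Per the labels, Cell Ranger 7.0.1 and mm39 were used, and the authors' deposited matrices give unnormalized UMI counts for the cells they took to be RGCs. The paper names an earlier Cell Ranger and kit and another sequencer than the labels do. Here, cells were summed to libraries (pandas 2.3.3, scipy 1.17.1 and numpy 2.4.6 under Python 3.11.15), and injured 3 and 4 were averaged with rounding. Counts of 9 samples were fitted in R 4.3.3 with edgeR 4.0.16 (filterByExpr defaults, TMM, robust quasi-likelihood F test, condition as the only term), with Benjamini-Hochberg adjustment over all genes and a threshold of 0.05. The filter on low counts keeps a gene with enough counts in 1 group alone. Atf3, Sprr1a, Hrk and Vip, too, were tested through the group where they were higher. Standard errors come from the log2 change and the F statistic. Ecel1 was in the fit and gets no test of condition. Marker classes used the same test with sample as a block. Cells were thinned to 8000 UMIs with a fixed random seed for shares, classes and correlations. No doublet caller was run, and the paper states an upper limit on UMIs per cell against doublets. The fits, thinning and correlation were tested on simulated data.

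Named genes were Ecel1, all of the M13 family and of the reported regulators, up to 4 of the largest rises and falls past the threshold in each other list, the 12 highest and 6 lowest genes by r, the type markers, Xist, mCherry, the pan-RGC markers and the most abundant markers of the amacrine, bipolar and microglial classes. Gap43, Ddit3, Gal and Sprr1a across groups of Ecel1 UMIs, the markers shown in the 3 uninjured cells, Malat1 and Phgdh were named after their values were seen. So were the 4 groups of Ecel1 UMIs. The gene and the lists were chosen with earlier results of these data known. Alternatives were DESeq2 1.42.0, upper-quartile factors, no filter on low counts, leaving out each sample in turn, the first 4 libraries of each condition with a replicate block or none, all 10 libraries as samples, thinned cells, at most 10% mitochondrial UMIs, cells without 3 markers of another class, cells without Xist, and injured 1 and 2 without mCherry cells. For classes and correlations, other thresholds, sums of thinned counts, unthinned counts and Spearman correlation were used. Figures were drawn with matplotlib 3.10.9.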

Additional observations from a re-analysis of the deposited data

Results flagged for a closer look

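Among Ecel1 and the named genes of the lists, 20 were checked for 1 uninjured library far from the other 5, and 3 had one. Chance alone marks about 1 in 20 groups of normally distributed values. That rate need not hold for genes with few or no counts, so the 3 are not set against it. Mme was at 26.6 CPM in uninjured 1, above the other 5 libraries. Atf3 was at 2.51 CPM in uninjured 4, the library of the cell with 12 Ecel1 UMIs and 15 Atf3 UMIs. Sprr1a was at 0.184 CPM in uninjured 5, the library of the cell with 5 Ecel1 UMIs, which held 1 Sprr1a UMI. Groups of 3 samples were not checked.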

How the results depend on the processing

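The log2 ratio of mean Ecel1 in injured over uninjured samples was 11.63 and ranged from 10.98 to 13.06 over 20 alternatives. It was 11.36 to 13.06 with 1 sample left out, highest without uninjured 5 and 11.93 without uninjured 4, the libraries that hold every uninjured Ecel1 UMI. It was 10.98 with thinned cells and 11.94 without cells that had markers of another class. Ecel1 in Opn4 cells was at a log2 ratio of −1.07 and in Cartpt cells at −0.37 with a threshold of at least 1 UMI. The ratio could not be formed for Opn4 and Eomes at 4 UMIs, nor for Tbr1 at the main threshold, because a class had no Ecel1 UMI. The thinned share of injured cells was 88.3% when at least 2 UMIs were asked for. Of the 12 genes with the highest r, 7 were shared with Spearman correlation, 7 in cells with Ecel1 alone and 6 in cells without Opn4, Eomes, Tbr1 and Cartpt. In the peptide list 3 genes passed with injured 1 and 2 alone and cells without mCherry. The causes of these shifts were not tested. Ecel1 in Penk cells gave no call under any of 9 alternatives, with log2 differences of 0.07 to 0.29.

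Over all genes, 6255 passed the threshold, and 4898 to 8229 did under the alternatives. For the 19 named genes of the lists, 342 of 353 alternative fits kept direction and side of the threshold, 11 lost the threshold (Vip, Npy and Pdyn) and 0 reversed, while the remaining ones gave no test of a gene (filtered for low counts, or left without p by DESeq2). Same-numbered libraries of the 2 conditions did not deviate together (r −0.06, 0.01, −0.05 and −0.05), and differently numbered ones ranged from −0.09 to 0.13. These values give no sign of pairing by number. They cannot exclude it, because the libraries are few and some injured ones share cells. With libraries 1 to 4 and the replicate block, 7781 genes passed, and 8229 without it, and the log2 ratio of Ecel1 was 12.64 in both, since it uses no fit.

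The main limits are 3 injured samples, of which 1 differs from the others in Xist and mCherry, marker classes of few cells, and 18 uninjured Ecel1 UMIs in all.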
